A study of Mus musculus with 12 samples.

Results

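Immediate early genes were followed as a family of 10 in bulk RNA-seq gene counts of mouse lymph nodes: Jun, Junb, Fos, Fosb, Atf3, Egr1, Egr2, Egr3, Nr4a1 and Ier2. The family was taken by name, all 10 were found among the 55487 genes of the count table, and all 10 passed the filter on low counts, as did 17301 genes in all. Nodes came from 4 groups of 3 libraries, described by the labels as biologically independent repetitions. T NDE mice carried B16F10 melanoma cells inoculated in the tongue and had the nociceptive (pain-sensing) nerves of the tumour-draining node inhibited. NT NDE mice had the nerves inhibited and no tumour inoculation, T NC mice had the tumour inoculation with the nerves left intact, and NT NC mice had neither. The labels leave out how the nerves were inhibited, the age, sex and strain of the mice, and the number of mice behind a library. The comparisons ask how the tumour and the nerves each bear on the node, and whether one effect differs with the other.

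Immediate early genes are transcribed quickly after a cell receives a signal, without new protein synthesis, and their RNA is short-lived. Jun and Junb proteins pair with Fos, Fosb or Atf3 proteins through leucine zippers and bind AP-1 and related sites. Egr1, Egr2 and Egr3 are zinc-finger factors that follow MAP kinase signalling and antigen receptor engagement, Nr4a1 is an orphan nuclear receptor switched on by antigen receptors in lymphocytes, and Ier2 is a nuclear protein made early in the growth factor response. In lymphoid tissue the family is also known to respond to tissue handling.

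Library totals ran from 16862953 to 24467873 counts. T cell and B cell marker genes, 5 each and none at 0 in any library, summed to 778 to 1025 CPM (counts scaled by the normalized library size) and to 2231 to 3058 CPM. Salivary gland markers, 8 genes, summed to 40890 CPM in the third T NDE library, and to 1456 and 28710 CPM in replicates 2 and 3 of NT NC, against 12.3 to 58.7 CPM in the other 9 libraries. These 3 libraries stand apart from the rest, and the member values that rest on them most are also given without them. That leaves T NDE with 2 libraries and NT NC with 1. Melanocyte markers, 5 genes, summed to between 0.818 and 2.49 CPM in all 12 libraries.

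Every member was detected in every library, but at very different levels. Per kilobase of annotated exon, Junb was highest at 63.2 ± 5.66 CPM per kilobase (SD over 12 libraries) and Fosb lowest at 0.502 ± 0.115. Between them, in order, came Ier2 at 52.8 ± 3.76, Egr3 at 23.8 ± 3.14, Nr4a1 at 15.2 ± 1.19, Egr1 at 14.9 ± 1.11, Jun at 12.3 ± 1.95, Egr2 at 5.50 ± 0.546, Fos at 3.19 ± 1.01 and Atf3 at 1.35 ± 0.349 CPM per kilobase (SD, n = 12). Junb stood above 96.0% of the 13996 tested protein-coding genes on this scale, while Fos stood above 34.1% and Fosb above 11.3%. Fos, the textbook marker of recent stimulation, was thus a low transcript in these nodes. Nr4a1 exceeded Egr1 in 6 of 12 libraries, so their order is not settled by these data. Egr1 exceeded Jun in 11 of 12 libraries, with overlapping ranges. Every other neighbour in the order held its place in all 12 libraries, although the ranges of Junb and Ier2, and of Fos and Atf3, overlapped. The plot of levels per exon length shows the steps.

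**Figure D1:**
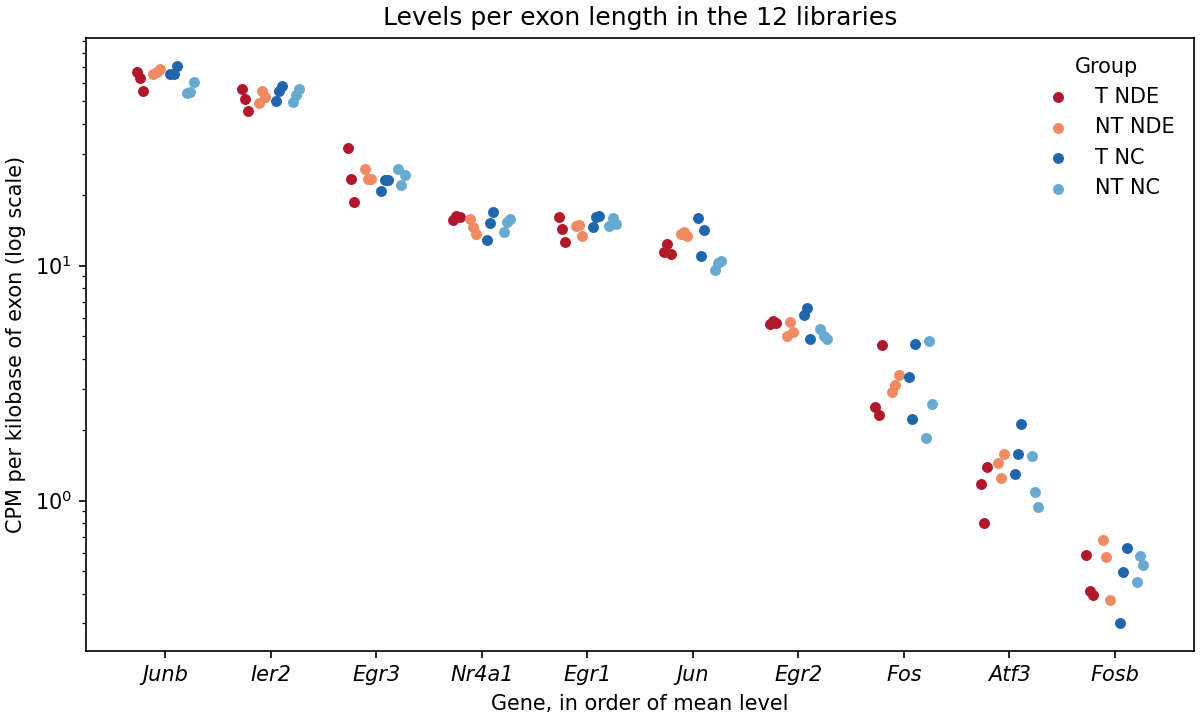
Level of each immediate early gene in CPM per kilobase of exon (log axis), with 1 point for each of the 12 libraries, coloured by group and ordered by mean level. Junb and Ier2 sit highest, and Fos, Atf3 and Fosb are lowest and most scattered.

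The members also differed in how tightly replicates agreed. The within-group SD of log2 CPM was 0.088 for Junb, 0.11 for Egr1, 0.11 for Ier2, 0.12 for Nr4a1, 0.13 for Egr2, 0.15 for Jun and 0.21 for Egr3, against a median of 0.16 over all tested genes. It was 0.33 for Atf3, 0.38 for Fosb and 0.51 for Fos. Counts were 34 to 77 per library for Atf3 and 45 to 87 for Fosb, so that counting error alone gives a coefficient of variation of 13.2% and 12.7%, set beside an observed 25.8% and 22.9% over the 12 libraries. Fos had 77 to 270 counts, with a counting error of 8.13% and an observed variation of 31.7%.

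Jun, the c-Jun subunit of AP-1, was lowest in NT NC nodes. It measured 36.4, 39.2 and 35.6 CPM in T NDE replicates 1 to 3 and 43.7, 44.5 and 42.6 CPM in NT NDE. In T NC it measured 50.9, 34.9 and 45.1 CPM, and in NT NC 30.5, 32.6 and 33.3 CPM. All 9 libraries of the other 3 groups lay above the 3 NT NC libraries. Of all tested genes, 7.78% stood apart higher in T NC and 9.71% higher in NT NDE, each against NT NC. The share for which all 3 groups lay above NT NC was not computed. T NC spanned the widest range. Its replicate 2 (34.9 CPM) lay between the highest NT NC library (33.3 CPM) and the lowest T NDE library (35.6 CPM). Jun lies on chromosome 4 from 95049034 to 95052222 (mm10, minus strand), and its antisense neighbour Junos held only 9 to 23 counts a library.

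Junb, the JunB subunit, followed the same order of groups at a higher level. It measured 153, 145 and 128 CPM in T NDE, 151, 154 and 158 CPM in NT NDE, 151, 151 and 163 CPM in T NC, and 125, 126 and 139 CPM in NT NC (replicates 1 to 3 of each). The NT NC libraries lay below all NT NDE and all T NC libraries (shares of all genes as given for Jun), and overlapped only T NDE. That overlap came from replicate 3 of T NDE (128 CPM) and replicate 3 of NT NC (139 CPM), both rich in salivary transcripts. Junb lies on chromosome 8 from 84974484 to 84978718 (mm10, minus strand), and 173 of its 2301 exon bases (7.5%) are shared with Prdx2, a peroxiredoxin gene on the opposite strand. Reads there cannot be assigned if counting ignored strand. Prdx2 itself had a log2 fold change of 0.03 (SE 0.074) for T NC against NT NC and 0.07 (SE 0.074) for NT NDE against NT NC. The plot of all members by library and the plot of Jun against Junb show both genes.

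**Figure D2:**
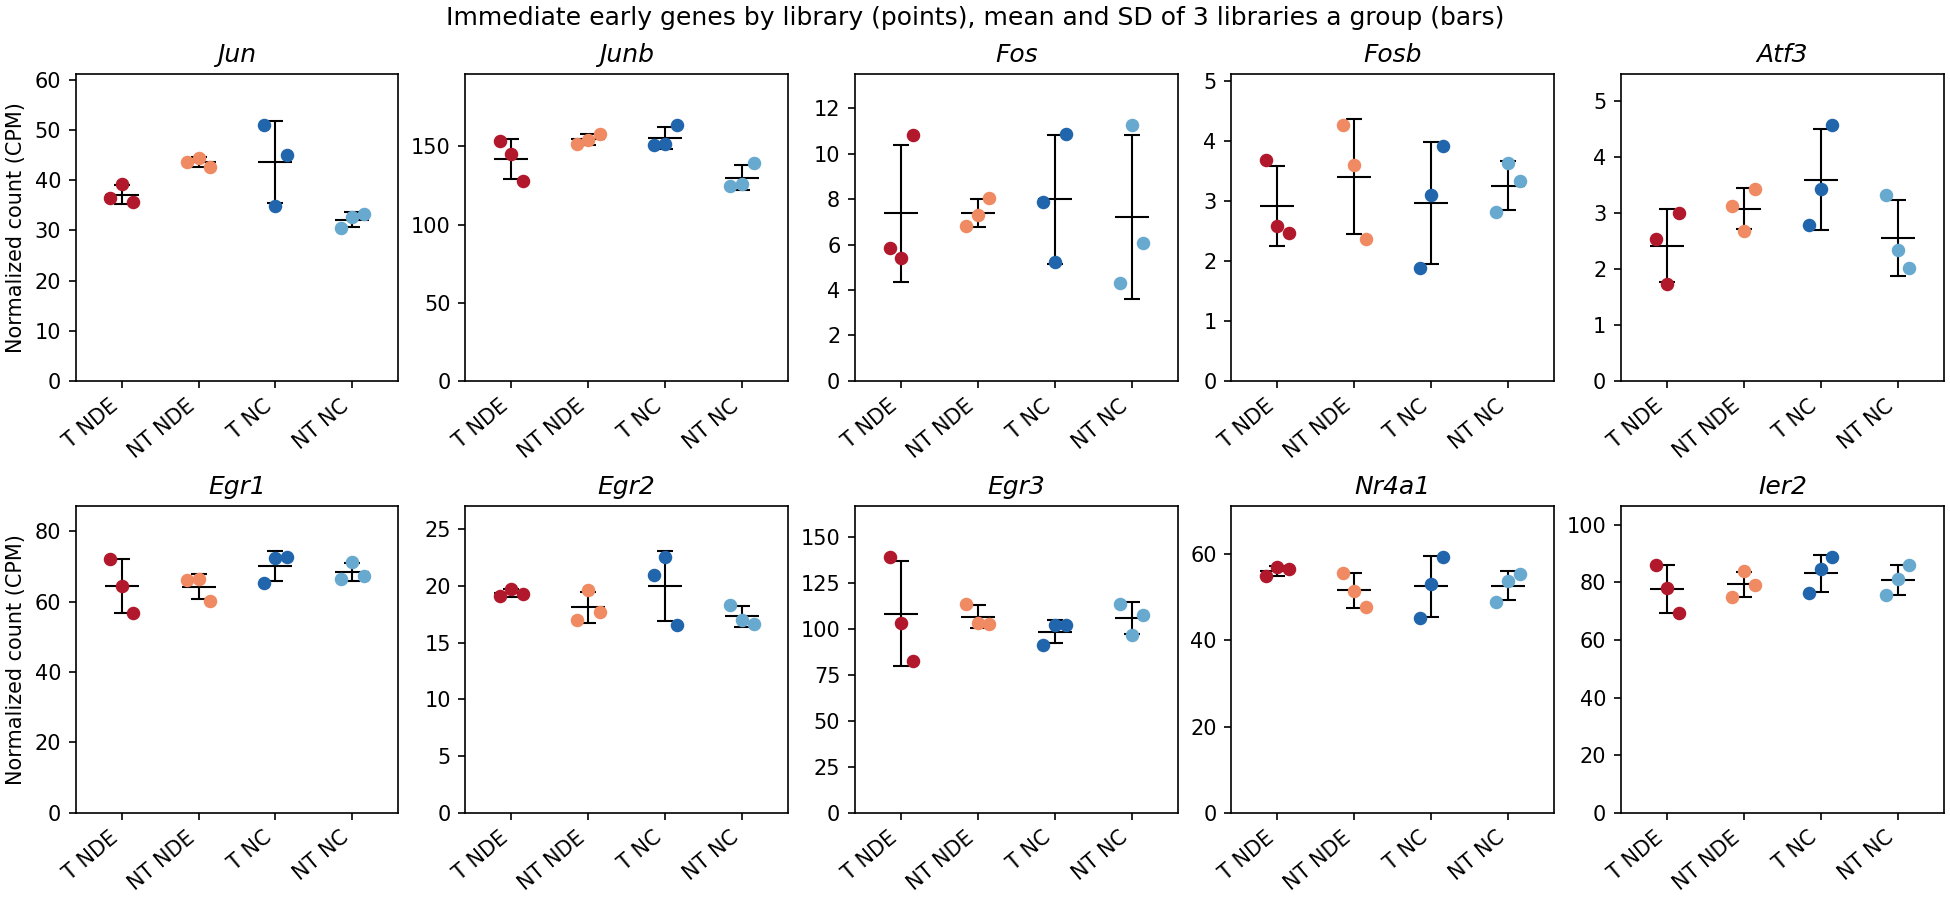
Normalized counts (CPM, linear axes from 0) of the 10 immediate early genes, with 1 point per library, and the mean and SD of the 3 libraries of each group as bars. The NT NC points of Jun (30.5 to 33.3 CPM) lie below all others, while the groups of Egr1, Egr3, Nr4a1 and Ier2 overlap throughout.

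**Figure D3:**
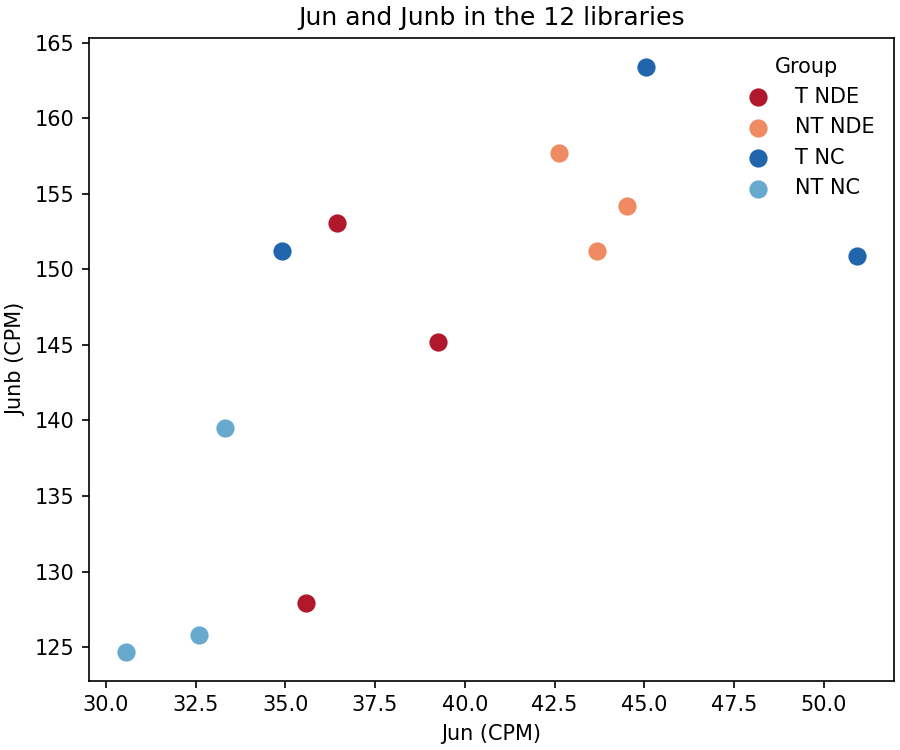
Jun (x axis) against Junb (y axis) in CPM, with 1 point per library, coloured by group; neither axis starts at 0. The 3 NT NC libraries have the lowest Jun, at 33.3 CPM or less, with Junb at 139 CPM or less, and T NDE replicate 3 lies near them at 35.6 CPM of Jun and 128 CPM of Junb.

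With intact nerves, the tumour was accompanied by higher mean Jun and Junb, and neither passed the test over all genes. Jun averaged 43.6 ± 8.10 in T NC, against 32.2 ± 1.44 CPM for NT NC (SD, n = 3), a 1.36-fold ratio with a 95% interval from 1.16 to 1.59 (log2 fold change 0.44, SE 0.11, edgeR adjusted p = 0.465). Junb averaged 155 ± 7.13 in T NC, against 130.0 ± 8.24 CPM for NT NC, a 1.19-fold ratio with an interval from 1.08 to 1.32 (log2 fold change 0.25, SE 0.069, edgeR adjusted p = 0.465). Of the 10 members 0 passed an adjusted p of 0.05 in edgeR, as did 0% of all 17301 tested genes. At an unadjusted p under 0.05 there were 2 members higher (Jun and Junb), where 4.58% of all genes were, and 0 lower, where 3.23% were. The groups did not overlap for 2 members higher in T NC, against 7.78% of all genes, and for 0 lower, against 7.23%. DESeq2 and limma-voom also called 0 members. With the 3 salivary libraries removed, so that NT NC was a single library assumed to vary like the others, Jun had a log2 fold change of 0.53 (edgeR adjusted p = 0.429) and Junb of 0.33 (edgeR adjusted p = 0.244). Without T NC replicate 2 the Jun value was 0.58 (edgeR adjusted p = 0.0508), and without T NC replicate 1 it was 0.31 (edgeR adjusted p = 0.814). In bulk tissue, fewer cells of a type and less RNA per cell cannot be told apart.

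Without a tumour, nerve inhibition gave nearly the same picture, measured against the same NT NC libraries. Jun averaged 43.6 ± 0.948 in NT NDE, against 32.2 ± 1.44 CPM for NT NC (SD, n = 3), a 1.35-fold ratio with a 95% interval from 1.16 to 1.58 (log2 fold change 0.44, SE 0.11, edgeR adjusted p = 0.205). Junb averaged 154 ± 3.24 in NT NDE, against 130.0 ± 8.24 CPM for NT NC, a 1.19-fold ratio with an interval from 1.07 to 1.32 (log2 fold change 0.25, SE 0.069, edgeR adjusted p = 0.258). Again 0 of 10 members passed in edgeR, with 0% of all genes. An unadjusted p under 0.05 was found for 2 members higher (5.67% of all genes) and 0 lower (4.71%). The groups stood apart for 2 members higher in NT NDE (9.71% of all genes) and 0 lower (9.18%). Limma-voom called 0 members, while Jun alone passed with DESeq2 (adjusted p = 0.0335, among 134 genes called) and with edgeR fitted to these 6 libraries alone (adjusted p = 0.0346, among 37 genes called). Without the 3 salivary libraries the value of Jun was 0.51 (edgeR adjusted p = 0.394) and that of Junb 0.31 (edgeR adjusted p = 0.254).

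In tumour-bearing mice the direction for Jun was the opposite. Jun averaged 37.1 ± 1.92 in T NDE, against 43.6 ± 8.10 CPM for T NC (SD, n = 3), with overlapping libraries (log2 fold change -0.23, SE 0.11, edgeR adjusted p = 0.850). Junb averaged 142 ± 12.9 in T NDE, against 155 ± 7.13 CPM for T NC, a log2 difference of -0.13 (SE 0.069, edgeR adjusted p = 0.872). On leaving out the 3 salivary libraries these values were -0.20 for Jun and -0.06 for Junb. Leaving out T NC replicate 1 gave -0.11 for Jun (edgeR adjusted p = 0.999), and leaving out replicate 2 of that group gave -0.38 (edgeR adjusted p = 0.336). Here 0 members and 0% of all genes passed in edgeR, and DESeq2 and limma-voom called 0 members too. In the 12-library fit, Jun was the 1 member lower at an unadjusted p under 0.05 (3.07% of all genes), and 0 were higher (2.75%). On leaving out the salivary libraries the log2 fold change was -0.75 for Atf3 and 0.30 for Egr3, against -0.56 and 0.14 with all 12. The groups stood apart for 0 members, higher or lower, against 4.55% and 4.60% of all genes.

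Between the nerve-inhibited groups, Jun averaged 37.1 ± 1.92 in T NDE, against 43.6 ± 0.948 CPM for NT NDE (SD, n = 3). All 3 T NDE libraries lay below all 3 NT NDE libraries (log2 fold change -0.23, SE 0.11, edgeR adjusted p = 1.00). Junb had a log2 fold change of -0.12 (SE 0.069, edgeR adjusted p = 1.00), with overlapping libraries. Without the 3 salivary libraries the values were -0.19 for Jun and -0.04 for Junb. Again 0 members passed in edgeR, DESeq2 and limma-voom, where 0.00578% of all genes did in edgeR. An unadjusted p under 0.05 was found for 0 members higher (1.66% of all genes) and 1 lower, Jun (2.05%). The groups stood apart for 0 members higher (4.10% of all genes) and 1 lower (4.33%).

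The difference between the effects was tested directly as the interaction, the nerve inhibition effect with a tumour minus that without one. It was -0.67 for Jun (SE 0.15, edgeR adjusted p = 0.501) and -0.37 for Junb (SE 0.098, edgeR adjusted p = 0.622), on the log2 scale. Of 17301 genes ordered by unadjusted p, Jun was number 15 and Junb number 42. In edgeR 0 members and 0% of all genes passed. With all 12 libraries, 3 members with a negative value had an unadjusted p under 0.05, Jun, Junb and Atf3 (3.95% of all genes). For a positive value there were 0 (3.16%). On leaving out the 3 salivary libraries the interaction was -1.26 for Fos, -0.64 for Atf3 and 0.39 for Egr3. With all 12 it was -0.13, -0.83 and 0.13. Limma-voom called 0 members and DESeq2 called Jun (adjusted p = 0.0320, among 43 genes called). Without T NC replicate 2 the interaction of Jun was -0.81 and passed in edgeR (adjusted p = 0.0364). Without the 3 salivary libraries it was -0.72 (edgeR adjusted p = 0.736), and that of Junb was -0.36. The plot of fold changes shows these values for every member.

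**Figure D4:**
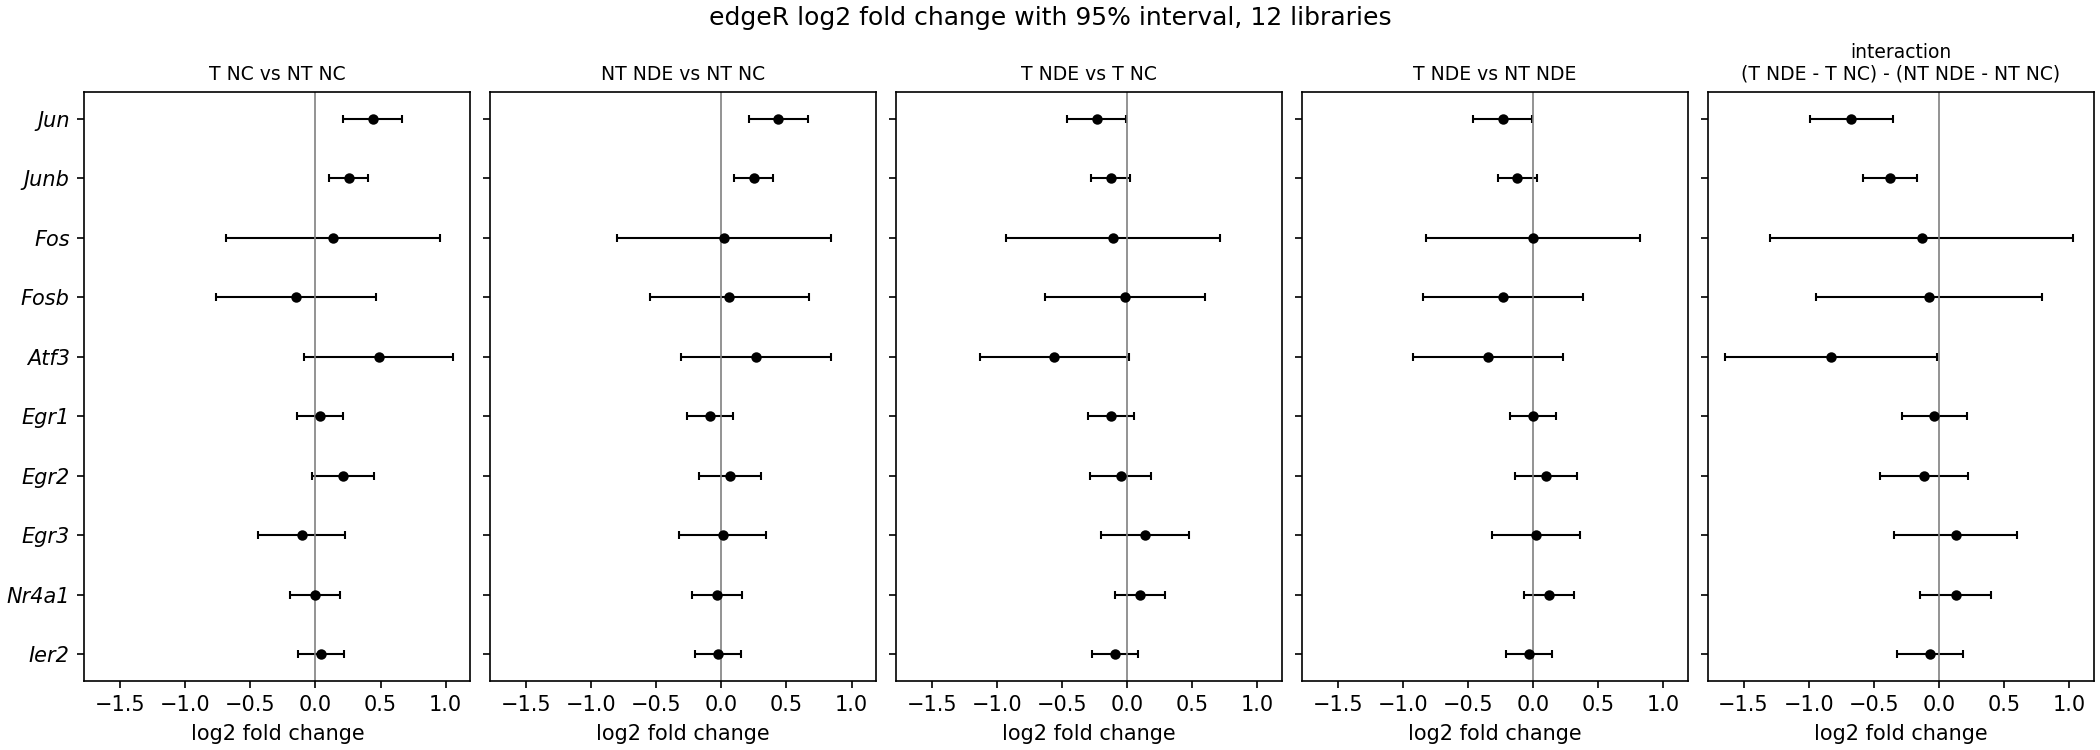
edgeR log2 fold change (x axis) of each immediate early gene in 4 comparisons and in the interaction, fitted to 12 libraries, with 95% intervals not adjusted for the number of genes. Jun and Junb lie right of 0 in both comparisons with NT NC and left of 0 for the interaction, and the intervals of Fos and Fosb include 0 in every panel.

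Averaged over the other factor, opposite differences offset each other. For NDE against NC, Jun had a log2 fold change of 0.10 (SE 0.074) and Junb of 0.06 (SE 0.049), and for T against NT 0.10 (SE 0.074) and 0.07 (SE 0.049). Over the 9 libraries that are not salivary, Jun had 0.15 and Junb 0.13 for NDE against NC, and Jun 0.17 and Junb 0.14 for T against NT. In edgeR 0 members passed either averaged comparison, where 0.0983% of all genes passed for NDE against NC and 0% for T against NT. In the fit to all 12 libraries, no member had an unadjusted p under 0.05 in either averaged comparison. Of all genes, 4.46% were higher and 4.73% lower for NDE against NC, and 2.25% higher and 2.24% lower for T against NT. DESeq2 and limma-voom called 0 members in both.

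Neutrophil marker sums were lowest in NT NC, as Jun was. They were highest in T NC, whereas mean Jun was 43.6 CPM in both T NC and NT NDE. This list was taken from several cell type lists after the values were seen. The 9 neutrophil markers, none at 0 in any library, summed to 170 to 240 CPM in T NDE, 223 to 270 CPM in NT NDE, 266 to 458 CPM in T NC and 105 to 202 CPM in NT NC. For T NC over NT NC, 8 of the 9 had positive log2 fold changes, with a median of 1.48, 7 at an unadjusted p under 0.05 (4.58% of all genes) and 0 past the threshold in edgeR. All 9 had a negative interaction, with a median of -1.70. The NT NC library without salivary transcripts held 202 CPM of these markers, above the 136 and 105 CPM of the other two. Leaving out the salivary libraries, the median was 1.03 for T NC against NT NC with 1 of 9 at an unadjusted p under 0.05 (4.20% of all genes). It was then 0.20 for NT NDE against NT NC, where it was 0.80 with all libraries, and -1.13 for the interaction, with 7 of 9 negative. Within T NC the order differed, since replicate 2 held 385 CPM of neutrophil markers with the lowest Jun. Their part in the Jun and Junb values was not tested.

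The promoters of the members that stood apart, Jun and Junb, are shown beside those of Fos, Nr4a1 and Egr2. The latter genes overlapped in every comparison made with all 12 libraries, and T NDE against NT NC was not among these. The promoters are set next to each other as sequences of the same length. They are RefSeq windows on GRCm38.p6, from 250 bases before to 50 bases after the annotated start, read 5′ to 3′ on the gene's strand. Capitals mark matches to the serum response element (CArG box), the CRE core TGACG, the EGR site GCGNGGGCG and the TATA box TATAAA, on either strand. The full CRE TGACGTCA, which contains the core, and the AP-1 site TGANTCA were searched as well.
Jun, chr4:95052173-95052472, minus strand: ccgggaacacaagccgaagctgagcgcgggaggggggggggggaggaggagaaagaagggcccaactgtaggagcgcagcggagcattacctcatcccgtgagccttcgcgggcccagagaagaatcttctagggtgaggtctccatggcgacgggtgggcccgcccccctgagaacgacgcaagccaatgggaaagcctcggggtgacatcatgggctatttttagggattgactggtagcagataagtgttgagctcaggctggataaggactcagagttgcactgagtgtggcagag
Junb, chr8:84978699-84978998, minus strand: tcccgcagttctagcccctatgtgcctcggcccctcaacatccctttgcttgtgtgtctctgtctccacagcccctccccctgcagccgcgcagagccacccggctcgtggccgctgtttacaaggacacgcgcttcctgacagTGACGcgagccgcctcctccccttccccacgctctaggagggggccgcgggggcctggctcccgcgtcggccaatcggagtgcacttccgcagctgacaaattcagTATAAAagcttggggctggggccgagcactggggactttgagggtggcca
Fos, chr12:85473640-85473939, plus strand: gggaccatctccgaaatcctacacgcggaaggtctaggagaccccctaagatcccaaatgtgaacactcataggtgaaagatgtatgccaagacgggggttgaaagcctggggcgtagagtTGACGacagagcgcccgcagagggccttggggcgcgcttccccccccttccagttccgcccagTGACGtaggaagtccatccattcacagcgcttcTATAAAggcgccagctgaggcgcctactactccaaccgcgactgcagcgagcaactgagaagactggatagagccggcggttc
Nr4a1, chr15:101266596-101266895, plus strand: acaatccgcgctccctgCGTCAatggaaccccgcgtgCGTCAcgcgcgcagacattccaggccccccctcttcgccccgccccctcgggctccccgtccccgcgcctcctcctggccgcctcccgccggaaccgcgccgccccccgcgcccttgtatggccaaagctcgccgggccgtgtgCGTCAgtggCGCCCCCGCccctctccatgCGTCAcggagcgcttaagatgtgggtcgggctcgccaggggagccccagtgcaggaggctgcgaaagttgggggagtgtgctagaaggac
Egr2, chr10:67537619-67537918, plus strand: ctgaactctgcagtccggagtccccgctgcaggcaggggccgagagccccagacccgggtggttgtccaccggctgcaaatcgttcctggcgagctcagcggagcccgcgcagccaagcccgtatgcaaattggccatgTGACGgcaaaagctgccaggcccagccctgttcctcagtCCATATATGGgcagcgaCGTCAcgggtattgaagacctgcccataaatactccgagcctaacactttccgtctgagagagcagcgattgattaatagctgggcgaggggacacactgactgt

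Windows were found for 7 of the 10 members, and for Egr2 there were 5. The CRE core occurred in those of 6 members (Fos, Fosb, Junb, Egr2, Nr4a1 and Atf3), and in 20.81% of all 32851 windows. It was found 4 times in the Nr4a1 window, starting at positions -233, -213, -69 and -40 from the start. In the Fos window it started at positions -129 and -66. The EGR site was matched in Fosb and Nr4a1 (5.55% of all windows), and the TATA box in Fos and Junb (13.62%). The TATA match spans positions -33 to -28 in Fos, and positions 1 to 6 in Junb, at the annotated start itself. A CArG box was found only in Egr2 among these members (1.63% of all windows), and the full CRE and the AP-1 site in none (1.79% and 7.81% of all windows). The Jun window held none of the motifs searched. A member was counted where any of its windows held a match, whereas the shares of all windows are per window. GC content ran from 56.0% to 72.3% in the member windows, against a median of 52.7% over all windows. The motif shares were not adjusted for it. A match is a description of the letters, and a missing match concerns only these windows and the exact letters searched. Near matches were not counted, such as tgacatca in the Jun window, which is close to TGACGTCA.

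Fos and Fosb, the partners of the Jun proteins in AP-1, overlapped between groups in every comparison of all 12 libraries. Fos measured 5.87, 5.43 and 10.8 CPM in T NDE, 6.81, 7.29 and 8.04 CPM in NT NDE, 7.89, 5.22 and 10.9 CPM in T NC, and 4.33, 11.3 and 6.06 CPM in NT NC (replicates 1 to 3 of each). Single libraries of 3 different groups held the highest values, and 2 of those, T NDE replicate 3 and NT NC replicate 2, are rich in salivary transcripts. NT NDE had the narrowest range. For T NC against NT NC the 95% interval of the fold ratio was 0.622 to 1.94. It was 0.574 to 1.80 for NT NDE against NT NC. These bounds give the ratios compatible with the 12-library fit, without adjustment for the number of genes, and are not a detection limit. Fosb lay between 1.88 and 4.26 CPM in all libraries, and its interval was 0.589 to 1.38 for T NC against NT NC and 0.684 to 1.59 for NT NDE against NT NC. The log2 fold changes of Fos ran from -0.11 to 0.13 over the 4 comparisons of groups, and those of Fosb from -0.23 to 0.06. These Fos values depend on the salivary libraries. Without them Fos had a log2 fold change of 0.89 (SE 0.33, edgeR adjusted p = 0.573) for T NC against NT NC and 0.77 (SE 0.33, edgeR adjusted p = 0.607) for NT NDE against NT NC, both set against the 1 remaining NT NC library. For T NDE the 9-library values of Fos were -0.49 against T NC and -0.37 against NT NDE, and the interaction was -1.26 (SE 0.42, edgeR adjusted p = 0.825), against -0.13 with all 12 libraries. Without NT NC replicate 2 alone, Fos had a value of 0.62 for T NC against NT NC.

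Atf3, a stress-induced repressor of the ATF/CREB family, had large fold changes on few counts. It measured 2.52, 1.72 and 3.00 CPM in T NDE, 3.12, 2.68 and 3.42 CPM in NT NDE, 2.78, 3.42 and 4.56 CPM in T NC, and 3.32, 2.33 and 2.02 CPM in NT NC. With all 12 libraries the groups overlapped in every comparison. The log2 fold change was 0.48 (SE 0.27) for T NC against NT NC and -0.56 (SE 0.27) for T NDE against T NC, with edgeR adjusted p of 0.682 and 0.856. Its interaction was -0.83 (SE 0.38, edgeR adjusted p = 0.698). Without the 3 salivary libraries the value for T NC against NT NC was 0.11 and the interaction -0.64, while that for NT NDE against NT NC was -0.11, the opposite sign to the 0.27 of all libraries.

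The Egr factors overlapped between groups in every comparison of all 12 libraries. Egr1 averaged 64.4 ± 7.73 CPM in T NDE, 64.3 ± 3.66 CPM in NT NDE, 70.1 ± 4.20 CPM in T NC, and in NT NC 68.4 ± 2.60 CPM (SD, n = 3). The interval of its fold ratio was 0.908 to 1.16 for T NC against NT NC and 0.832 to 1.06 for NT NDE against NT NC, both narrower than a 1.36-fold ratio in either direction. Egr2, which restrains T cells after antigen receptor signals, averaged 19.4 ± 0.326, 18.1 ± 1.36, 20.0 ± 3.08 and 17.3 ± 0.905 CPM in T NDE, NT NDE, T NC and NT NC, with a log2 fold change of 0.21 (SE 0.11) for T NC against NT NC (edgeR adjusted p = 0.669). Egr3, its close relative, averaged 108 ± 28.6, 107 ± 6.24, 98.5 ± 6.21 and 106 ± 8.56 CPM in the same order of groups. The spread of Egr3 in T NDE came from 139 CPM in replicate 1 and 82.5 CPM in replicate 3, which is rich in salivary transcripts, with 103 CPM in replicate 2. Its log2 fold change for T NDE against T NC was 0.14, and it was 0.30 without T NDE replicate 3 (edgeR adjusted p = 0.806) and -0.09 without T NDE replicate 1. Without all 3 salivary libraries it was 0.30 for T NDE against T NC (SE 0.11, edgeR adjusted p = 0.751) and -0.20 for T NC against NT NC (-0.11 with all libraries), and the groups then stood apart in both.

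Nr4a1 and Ier2 overlapped between groups as well, with all 12 libraries. Nr4a1 averaged 56.2 ± 1.14 CPM in T NDE, 51.6 ± 4.01 CPM in NT NDE, 52.6 ± 7.04 CPM in T NC, and in NT NC 52.7 ± 3.38 CPM (SD, n = 3). Its fold ratio had an interval from 0.871 to 1.14 for T NC against NT NC and from 0.856 to 1.12 for NT NDE against NT NC. Ier2 averaged 77.8 ± 8.22, 79.3 ± 4.48, 83.2 ± 6.42 and 80.9 ± 5.15 CPM in T NDE, NT NDE, T NC and NT NC, with intervals from 0.909 to 1.16 and from 0.867 to 1.11 for the same comparisons. These intervals are not adjusted for the number of genes.

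The 10 genes did not vary as a block over the libraries. Among the 45 pairs, Pearson's r of log2 CPM over 12 libraries had a median of 0.10, exceeded 0.5 in 8 pairs and was below 0 in 16. Egr1 and Ier2 were the most alike (r = 0.79), followed by Jun and Junb (0.75) and by Fosb and Nr4a1 (0.63). After removal of the group means, r was 0.76 for Egr1 and Ier2, 0.82 for Fosb and Nr4a1 and 0.22 for Jun and Junb. The likeness of Jun and Junb thus lay mostly between the groups, while that of Egr1 and Ier2 lay within them. Fos and Egr3 ran most against each other (r = -0.58). These values describe libraries that share groups and normalization. T NC replicate 3 held the highest value of 5 members (Junb, Egr1, Nr4a1, Ier2 and Atf3), and T NDE replicate 3, rich in salivary transcripts, the lowest of 3 (Egr1, Egr3 and Ier2). The summed level of the 10 genes was 518 ± 54.1 CPM in T NDE, 532 ± 8.92 CPM in NT NDE, 538 ± 27.3 CPM in T NC, and in NT NC 500 ± 14.8 CPM (SD, n = 3).

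**Figure D5:**
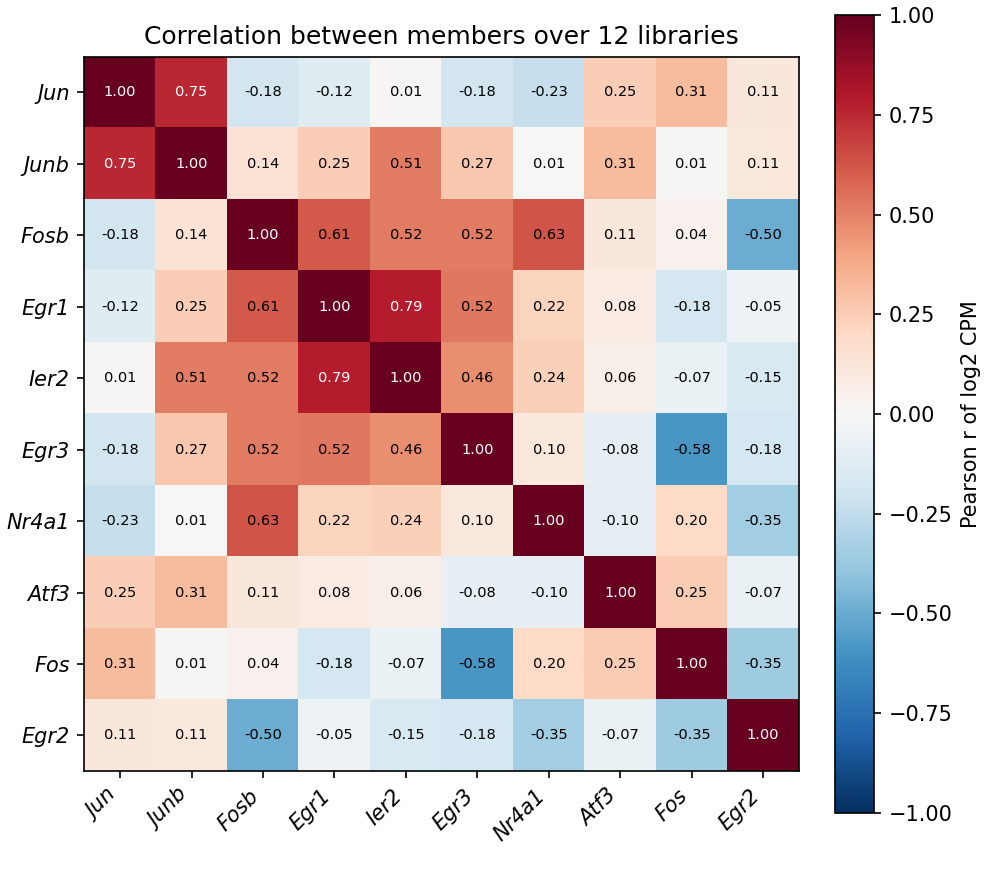
Pearson's r between log2 CPM of each pair of immediate early genes over the 12 libraries, group differences included, as a colour scale from -1 to 1 with the value in each cell. Egr1 with Ier2 (0.79) and Jun with Junb (0.75) are the highest pairs, and Fos with Egr3 (-0.58) the lowest.

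Outside the family, the genes closest to its mean standardized level over the 12 libraries, among 13380 compared, were Stx4a (r = 0.95), Zdhhc12 (0.90), Mlst8 (0.87), Jakmip1 (0.87), B3gat3 (0.86), Fgd3 (0.86), Stk16 (0.86) and Sbk1 (0.86). The gene most like Jun was Aoc1 (r = 0.91), that most like Junb was Ndufb7 (0.89), and that most like Egr1 was Ccdc125 (0.94). For the other members these were Ighv1-84 for Fos (0.89), Ikbkb for Fosb (0.93), Rcor3 for Egr2 (0.87), Aars2 for Egr3 (0.93), Eya1 for Nr4a1 (0.86), Gnpat for Ier2 (0.87) and Olfml2b for Atf3 (0.84). For none of the 10 was the closest gene another member of the family. Each closest gene is the highest of 13389 compared over 12 libraries, so this says little about how alike the members are.

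Partner and pathway genes were examined as whole lists. Of 14 tested genes among other AP-1, ATF and NR4A partners and Egr co-repressors, 0 passed in edgeR in any of the comparisons, and the median log2 fold change was 0.13 for T NC against NT NC and 0.13 for NT NDE against NT NC, where the medians of all genes were -0.01 and 0.00. Unadjusted, 3 of them were higher and 0 lower in each of these comparisons, and they were Jund, Batf and Nab2, named after their values were seen. Of all genes, 4.58% were higher and 3.23% lower in T NC at that threshold, and 5.67% and 4.71% in NT NDE. With the salivary libraries left out, 2 of the 14 were higher in each comparison, 0 lower in T NC and 1 lower in NT NDE. Jund, the third Jun protein, averaged 261 ± 40.4 CPM in T NDE, 263 ± 9.05 CPM in NT NDE, 272 ± 19.6 CPM in T NC, and in NT NC 226 ± 20.6 CPM (SD, n = 3). Batf, which pairs with Jun proteins in lymphocytes, had log2 fold changes of 0.32 (SE 0.097) for T NC and 0.26 (SE 0.097) for NT NDE against NT NC, and Nab2, a co-repressor of Egr proteins, of 0.32 (SE 0.091) and 0.21 (SE 0.092), with edgeR adjusted p no lower than 0.375. For Jund, Batf and Nab2 the NT NC libraries lay below all libraries of T NC and of NT NDE. Of all genes, 7.78% stood apart higher in T NC and 9.71% in NT NDE, against the same NT NC libraries. Group means of Creb1, the founding CREB factor, lay between 165 and 174 CPM, and those of Atf4, the factor of the integrated stress response, between 163 and 175 CPM.

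Of 31 other immediate early genes, again 0 passed, with medians of 0.07 for T NC against NT NC, -0.02 for T NDE against T NC, 0.02 for NT NDE against NT NC and -0.04 for the interaction. The most abundant were the antiproliferative gene Btg1, at 740 ± 64.0, 727 ± 16.8, 783 ± 36.0 and 728 ± 11.2 CPM in T NDE, NT NDE, T NC and NT NC, and the RNA-decay factors Zfp36l2 and Zfp36l1, with means between 327 and 408 CPM and between 359 and 389 CPM. Zfp36, the founding member of that RNA-decay family and named after its values were seen, had a log2 fold change of 0.25 (SE 0.070) for NT NDE against NT NC (edgeR adjusted p = 0.253). Among 13 MAP kinase phosphatases and feedback inhibitors 0 passed, with medians of 0.08, 0.03, -0.03 and 0.08 in the same order. Dusp2, which dephosphorylates MAP kinases in lymphocytes, averaged 148 ± 8.67, 123 ± 7.93, 137 ± 25.4 and 126 ± 5.05 CPM, while means of the phosphatase Dusp6 lay between 71.1 and 80.5 CPM and single libraries of Rasa2, which promotes GTP hydrolysis by Ras, between 93.8 and 104 CPM. Of 22 kinases and factors that switch on immediate early genes 0 passed, with medians of 0.01, 0.02, 0.05 and -0.01, and Nfatc1, a calcium-activated factor of lymphocytes, and Rps6ka3, a kinase of the RSK family, had means of 189 to 201 CPM and 190 to 208 CPM over the groups.

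Stress genes were measured for comparison. All 11 heat shock genes had positive log2 fold changes for T NC over NT NC, and 10 of 11 for NT NDE over NT NC, with medians of 0.13 and 0.22 and 0 past the threshold in edgeR. The medians were 0.27 and 0.28 without the salivary libraries, with 10 of 11 positive in each. Their summed level was 1695 to 2395 CPM in T NDE, 1933 to 2094 CPM in NT NDE, 1883 to 1985 CPM in T NC and 1656 to 1923 CPM in NT NC, and their part in the Jun and Junb values was not tested. Hspa8, the constitutive heat shock cognate, averaged 1131 ± 201 CPM in T NDE, 1087 ± 20.5 CPM in NT NDE, 1056 ± 38.4 CPM in T NC, and in NT NC 934 ± 70.4 CPM. Means of the chaperones Hsp90aa1 and Hspd1 lay between 272 and 298 CPM and between 175 and 186 CPM. Among 10 targets of Atf4 in the integrated stress response 0 passed, with medians of -0.04, 0.05, -0.01 and 0.17 in the order used for the other immediate early genes. These were -0.02, -0.05, 0.01 and -0.10 without the salivary libraries, so that all but the first changed sign. Their most abundant members were Ddit4, with means between 129 and 193 CPM, Ppp1r15a, between 35.4 and 36.5 CPM, and Atf5, between 19.1 and 22.1 CPM.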

How the data were processed

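Whole-number read counts per Ensembl gene were deposited by the authors for 12 libraries in 1 table of 55487 genes, without normalization. HISAT2 2.0 and the mm10 build are named in the submitters' processing notes, and total RNA was extracted with Trizol per the labels' protocols. The read counter, its annotation and its strand setting were not given in the sources used here. IDs were matched to symbols in GENCODE M21 (55141 IDs), which also gave positions and exon lengths. Unmatched IDs held no more than 0.0548% of any library.

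The main analysis used edgeR 4.0.16 under R 4.3.3: TMM normalization (factors 0.967 to 1.01), filterByExpr by group (minimum count 10, minimum total 15, leaving 17301 genes) and its quasi-likelihood test, robust, with 1 mean per group over all 12 libraries. P values are two-sided and were adjusted by the Benjamini-Hochberg method over all tested genes, with a threshold of 0.05. Standard errors were taken from the size of the fold change and the F statistic. DESeq2 1.42.0 and limma-voom (limma 3.58.1) were alternatives, with other size factors, filters, a replicate block and libraries left out. With 3 libraries in each of 2 groups, the smallest two-sided p of an exact permutation test is 0.1. Because nothing says whether a library is 1 mouse, p-values measure the spread between these libraries.

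The members, gene lists and libraries to leave out were chosen with earlier results of these data known. Named by rule were the 10 members, the 3 most abundant genes of each list, any that passed, and the genes closest in pattern with at least 1 CPM. Of the most abundant genes of the lists, 1 is not reported here.
CPM values were computed from the deposited counts.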

Additional observations from a re-analysis of the deposited data

Results flagged for a closer look

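Jun was picked out because every T NDE library lay below every NT NDE library while every T NC library lay above every NT NC library. Over all tested genes, 4.33% stood apart lower in T NDE against NT NDE, and 7.78% higher in T NC against NT NC. The share of genes with both was not computed, so how unusual the pattern is cannot be said. The difference between these effects was -0.67 on the log2 scale and did not pass in edgeR's interaction test over all genes (adjusted p = 0.501).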

How the results depend on the processing

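Of 1440 values of the members recomputed under the alternatives, 1339 kept their sign, and the 101 that did not had log2 fold changes of at most 0.27 in size in the 12-library edgeR fit. The count of members past the threshold stayed at 0 except that Jun passed for NT NDE against NT NC with DESeq2 (1 member) and with only the 6 libraries of that comparison in the fit (1 member), and for the interaction with DESeq2 (1 member) and without T NC replicate 2 (0 to 1 member over the libraries left out in turn). With only 6 libraries in the fit, T NC and T NDE are both left out of the estimate of spread, and 37 genes were called. Why Jun passed in any of these settings was not tested. Without the 3 salivary libraries NT NC has 1 library and T NDE 2, and groups of fewer libraries stand apart more often over all genes too. For T NC against NT NC 4 members were apart higher (Fos, Jun, Junb and Ier2) and 1 lower (Egr3), with 25.6% and 27.7% of all genes. For NT NDE against NT NC 3 were higher (Fos, Jun and Junb) and 0 lower, with 28.9% and 28.1%. For T NDE against T NC 1 was higher (Egr3) and 1 lower (Atf3), with 10.1% and 10.7%, and for T NDE against NT NDE 0 were higher and 3 lower (Fos, Jun and Atf3), with 10.1% and 12.7%. The replicate block called 0 members in every comparison. Whether replicate numbers pair the libraries cannot be settled from these values. Same-numbered libraries of different groups had correlations of their deviations from -0.13 to 0.52, with 3 of 18 over 0.1. The highest joined T NDE replicate 3 and NT NC replicate 3, both rich in salivary transcripts. Of the 12 libraries, 4 correlated best with their own number. Over all genes, edgeR called 0, 0, 0, 1, 0, 17 and 0 genes for the 7 contrasts, taken as T NC over NT NC, T NDE over T NC, NT NDE over NT NC, T NDE over NT NDE, the interaction, and the averaged NDE over NC and T over NT. DESeq2 called 41, 44, 134, 16, 43, 130 and 3 and limma-voom 0 in each. Without a filter there were 4, 12, 43, 1, 1, 41 and 2 calls, with the replicate block 0, 0, 3, 3, 1, 1 and 0, and without the 3 salivary libraries 7, 1, 33, 28, 3, 49 and 66. With only the libraries of the comparison, the first 4 had 0, 0, 37 and 1 calls. Leaving out 1 library gave 0 to 3, 0 to 1, 0 to 7, 0 to 4, 0 to 2, 0 to 30 and 0 to 22. Counts of 34 to 87 a library limit what can be said of Atf3 and Fosb.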
